A study of Mus musculus with 42 samples.

Results

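Soleus was compared with quadriceps in wild-type (wt) young mice. The 8 arrays of this comparison, of 42 in the series, come from 4 male mice named F4-1, F4-2, F4-3 and F4-4, each with 1 soleus and 1 quadriceps array. They were chosen by their titles, which name genotype, age class, muscle and mouse. The mice were 2 to 3 months old and carry the strain label 129 SvEvBrd x C57BL/6 heterozygotes, which every array of the series carries. Capn3, the gene of the muscle protease calpain 3, is taken from general knowledge to be what C3KO mice lack. The groups set beside the wt young mice were 5 wt adult mice of 11 to 12 months and 3 C3KO young mice of 2 to 3 months, each with both muscles. The fit also held 6 C3KO adult mice of 11 to 12 months, which entered only the shared estimate of the spread. The remaining C3KO young mouse, H4-2, was left out. The mean of 16 liver markers was 11.64 (log2) on its soleus array and between 3.92 and 3.96 on the other 3 of its group. Only wt young mice have names that begin with F4, so that age or genotype and a property of the F4 mice cannot be told apart.

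Soleus is a small postural muscle of the calf that is active for long periods, and in the mouse it holds mainly slow type I and fast oxidative type IIa fibres. Quadriceps is a large thigh muscle made mostly of fast IIx and IIb fibres, which contract quickly and draw on glycogen. Each fibre type carries its own isoforms of myosin, troponin and tropomyosin, its own calcium pump and calcium buffers, and its own balance of oxidative and glycolytic enzymes. A whole muscle also holds vessels, connective tissue, nerve ends, fat and immune cells. In RNA from whole muscle, fewer cells of a type and less RNA per cell cannot be told apart.

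The values are log2 expression levels from 1-colour Affymetrix mouse arrays, as the authors deposited them. For each gene, soleus minus quadriceps was taken within each mouse, so a positive difference is higher in soleus and 1 log2 unit is a factor of 2. Values of the 4 mice are given in the order F4-1 to F4-4. A ± after a difference is its standard error from the limma fit (n = 4 mice). The spread in that fit was estimated over 18 mice of 4 groups. Adjusted p values are limma's, two-sided, after Benjamini-Hochberg adjustment over all 11540 genes tested. A gene passed when that value was under 0.05.

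The myosin heavy chain genes show the contrast most directly. Myh7 encodes the slow type I myosin, Myh2 the type IIa, Myh1 the type IIx and Myh4 the fastest, type IIb. Myh2, Myh1 and Myh4 lie beside each other in this order on chromosome 11, and Myh7 lies on chromosome 14. Their promoter windows are printed because these 4 genes carry the fibre type difference and 3 of them are neighbours with different muscle patterns. Each window holds 250 bases before and 50 after the first start site of the gene, from RefSeq on GRCm38.p6, read 5′ to 3′ on the strand of the gene. The Myh7 window is chr14:54994577-54994876 on the minus strand. On the plus strand, the Myh2 window is chr11:67170777-67171076, the Myh1 window chr11:67199852-67200151 and the Myh4 window chr11:67237562-67237861. Capitals mark matches, on either strand, to the letters of 5 motifs: CATTCC (bound by TEAD factors), TATAAA (the promoter element that TBP binds), CAGCTG (an E-box bound by MyoD family factors), AAGGTCA (bound by oestrogen-related receptors) and CTANNNNTAG (the core of the MEF2 site). A match is a description of letters and not a shown binding site.
Myh7: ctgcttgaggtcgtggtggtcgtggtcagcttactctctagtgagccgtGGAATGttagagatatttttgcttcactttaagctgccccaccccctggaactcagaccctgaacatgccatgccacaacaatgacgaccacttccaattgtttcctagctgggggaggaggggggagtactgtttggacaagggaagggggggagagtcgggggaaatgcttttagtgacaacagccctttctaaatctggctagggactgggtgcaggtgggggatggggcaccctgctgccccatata
Myh2: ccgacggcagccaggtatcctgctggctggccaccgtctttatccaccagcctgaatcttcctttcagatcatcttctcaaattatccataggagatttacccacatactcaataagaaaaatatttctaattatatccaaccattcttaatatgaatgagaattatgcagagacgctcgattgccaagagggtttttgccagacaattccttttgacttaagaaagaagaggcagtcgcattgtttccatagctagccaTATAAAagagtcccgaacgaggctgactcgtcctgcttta
Myh1: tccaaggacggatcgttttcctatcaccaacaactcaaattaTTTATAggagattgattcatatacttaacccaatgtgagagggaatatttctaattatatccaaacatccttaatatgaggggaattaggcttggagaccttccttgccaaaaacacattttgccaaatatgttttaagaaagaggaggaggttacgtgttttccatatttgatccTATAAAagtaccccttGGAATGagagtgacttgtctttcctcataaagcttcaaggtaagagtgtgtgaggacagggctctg
Myh4: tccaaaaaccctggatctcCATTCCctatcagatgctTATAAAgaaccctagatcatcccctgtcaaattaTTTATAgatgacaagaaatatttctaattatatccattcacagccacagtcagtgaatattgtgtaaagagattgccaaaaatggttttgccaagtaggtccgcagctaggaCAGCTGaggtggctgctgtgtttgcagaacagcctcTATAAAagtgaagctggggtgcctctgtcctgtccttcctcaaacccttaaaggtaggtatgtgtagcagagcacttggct
The 3 windows on chromosome 11 each held TATAAA, and the printed Myh7 window did not. Myh7 has 2 start sites among these RefSeq promoters and the other 3 genes 1 each. The window of the second Myh7 start was not searched. CATTCC was present in the Myh7, Myh1 and Myh4 windows, and CAGCTG in the Myh4 window alone of these 4. Among 8 fast contractile genes with a promoter in the table, CATTCC was found in 5 and TATAAA in 4. CAGCTG was in 3 of these 8. Of 12 slow contractile genes, 3 held CATTCC, 1 held TATAAA and 5 held CAGCTG. In the 9316 promoters of genes tested, CATTCC was found in 12.1%, TATAAA in 7.59% and CAGCTG in 15.3%. Over all 27018 promoters in the table, CATTCC was in 14.6%, TATAAA in 14.2% and CAGCTG in 16.1%. CAGCTG was in 24.2% of the 289 promoters of genes more than 2-fold higher in soleus and in 17.6% of the 278 of genes more than 2-fold higher in quadriceps. In the same order, CATTCC was in 14.9% and 11.2% of these sets and TATAAA in 10.7% and 9.71%. AAGGTCA was in 3.81% and 5.04% of them, and the MEF2 core in 3.46% and 3.6%. AAGGTCA was in 1 of 22 promoters of fatty acid genes, in 2 of the 12 slow and 0 of the 8 fast contractile ones, in 3.11% of those of genes tested and in 4.66% of all. The MEF2 core was in 1 of the 12 slow and 0 of the 8 fast contractile promoters, in 3.17% of those of genes tested and in 3.7% of all.

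Slow myosin was abundant in soleus of every mouse and low in quadriceps. Myh7 read 13.71, 13.70, 13.67 and 13.62 in soleus and 9.10, 7.46, 7.01 and 9.18 in quadriceps, a difference of 5.49 ± 0.62 (adjusted p = 4.79e-07), or 44.8-fold. The soleus values were nearly equal, whereas quadriceps was about 2 log2 units higher in F4-1 and F4-4 than in F4-3. Myh4 showed the reverse arrangement, with quadriceps at 13.85, 13.82, 13.85 and 13.89 and soleus at 8.26, 11.69, 12.83 and 11.58. Quadriceps was level across mice, and soleus of F4-1 stood more than 3 units under the other soleus arrays. The Myh4 difference was -2.76 ± 0.91 (adjusted p = 0.0206), and without F4-1 it was -1.82 with an adjusted p of 0.181, no longer past the threshold. A second Myh4 probe set gave -4.50. Myh2 was higher in soleus, at 14.12, 14.07, 14.15 and 14.08, than in quadriceps, at 12.67, 12.49, 12.60 and 13.09 (difference 1.39 ± 0.21, adjusted p = 2.48e-05). Myh1 read 13.42, 13.39, 13.40 and 13.27 in soleus and 13.30, 13.06, 13.15 and 13.33 in quadriceps, with a difference of 0.16 ± 0.12 that did not pass (adjusted p = 0.32). The ranges of the 2 muscles overlapped for Myh1 and for none of the other 3 genes. Several readings lie near the top of these arrays, whose highest values were 14.40 to 14.43, and probe sets of this gene family may share target sequence. How far either compresses the differences was not tested.

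**Figure D1:**
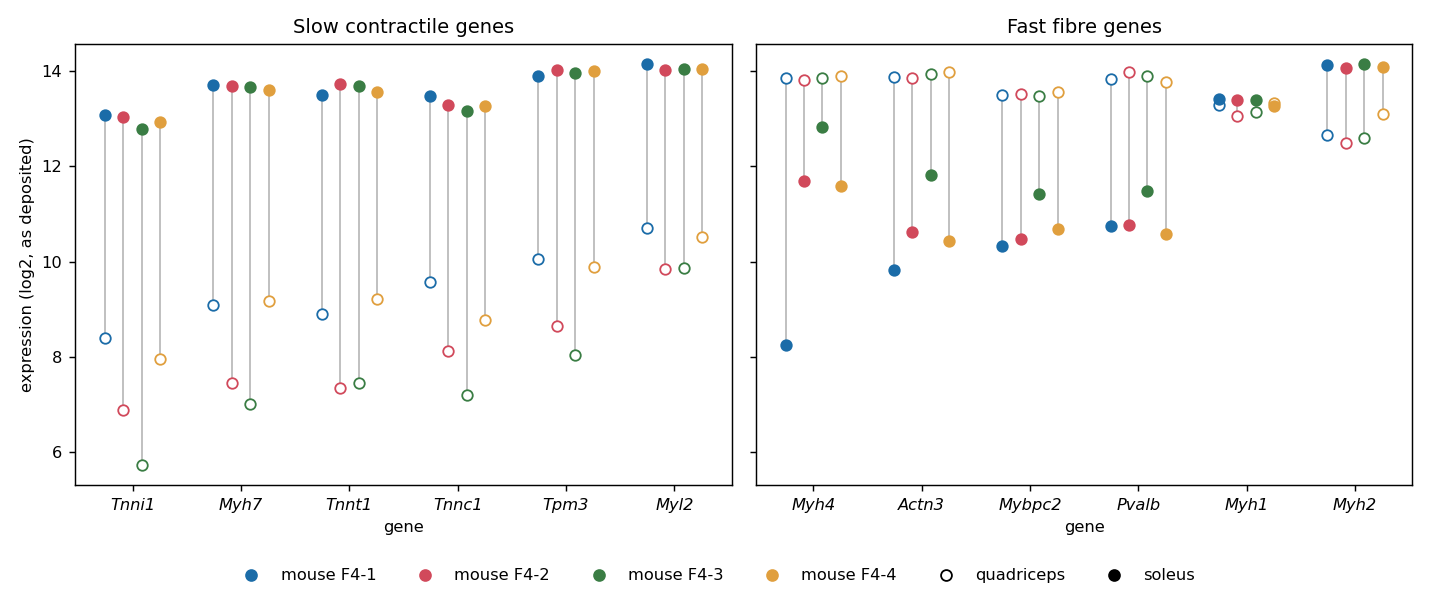
Log2 expression (y axis, as deposited) of 6 slow contractile genes and 6 fast fibre genes (x axis) in quadriceps (open circles) and soleus (filled circles) of the 4 wt young mice (colours), with a grey line joining the muscles of a mouse. For the slow genes the soleus points coincide and the quadriceps points spread, and for Myh4, Actn3, Mybpc2 and Pvalb the quadriceps points coincide and the soleus points spread.

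Of 12 contractile genes of slow fibres, 11 were higher in soleus, none was higher in quadriceps, and the median difference was 3.77. Over all genes tested, 19% passed as higher in soleus and 18.1% as higher in quadriceps, with a median difference of 0.0011. Troponin I of slow fibres, Tnni1, had the largest difference toward soleus: 13.08, 13.04, 12.79 and 12.93 in soleus and 8.39, 6.89, 5.73 and 7.95 in quadriceps, 5.72 ± 0.51 or 52.7-fold (adjusted p = 2.07e-08). Troponin T (Tnnt1) followed with 13.50, 13.73, 13.69 and 13.57 in soleus against 8.90, 7.35, 7.45 and 9.22 in quadriceps, a difference of 5.39 ± 0.58. The calcium-binding troponin C of slow and cardiac muscle, Tnnc1, differed by 4.88 ± 0.59, with quadriceps at 9.57, 8.13, 7.19 and 8.78. In each of these 3 troponins quadriceps was higher in F4-1 and F4-4 than in F4-2 and F4-3, and no soleus value came near a quadriceps value. The slow tropomyosin gene Tpm3 (4.82 ± 0.56), the ventricular and slow myosin light chains Myl2 (3.84 ± 0.58) and Myl3 (3.70 ± 0.46), and the Z-disc proteins Csrp3 (3.35 ± 0.41) and Myoz2 (3.24 ± 0.39) were also higher in soleus. Other Tpm3 probe sets ranged from 0.68 to 4.77. Differences were smaller for Myh7b, a slow-tonic myosin (2.06 ± 0.15), and for slow myosin-binding protein C, Mybpc1 (1.22 ± 0.13). The light chain Myl6b, at 0.12 ± 0.12, did not pass (adjusted p = 0.459).

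The slow contractile genes were even across soleus muscles and uneven across quadriceps muscles. Their mean level over the 12 genes was 12.28, 12.27, 12.20 and 12.23 in soleus and 9.13, 8.32, 7.98 and 8.95 in quadriceps. The 14 fast contractile genes had the opposite arrangement, with means of 11.95, 12.20, 12.50 and 12.17 in soleus and 13.14, 13.18, 13.18 and 13.23 in quadriceps. Soleus of F4-3 was highest for the fast genes, and quadriceps of F4-3 was lowest for the slow genes. The order of the mice was also counted over all genes more than 4-fold different. These sets include members of both contractile lists, so the counts do not show the arrangement apart from those lists. Among the 72 genes more than 4-fold higher in quadriceps, the soleus of F4-3 had the highest of the 4 soleus values for 52, against 33.7% of all genes tested. Among the 92 genes more than 4-fold higher in soleus, the quadriceps of F4-4 was the highest for 45 (over all genes 33.9%) and that of F4-3 the lowest for 40 (over all genes 19.6%). In the slow list, by contrast, the quadriceps mean of F4-4 (8.95) was not the highest (9.13). The genes of each set share each mouse's 2 arrays and are not independent of each other.

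Of 14 fast contractile genes, 11 were higher in quadriceps, 1 (Myh2) was higher in soleus and 2 (Myh1 and Tnnc2) did not pass, and the median was -0.49. Actn3, the Z-disc alpha-actinin of fast fibres, read 13.88, 13.86, 13.94 and 13.97 in quadriceps and 9.83, 10.61, 11.83 and 10.43 in soleus, a difference of -3.24 ± 0.70 (adjusted p = 0.000956). Fast myosin-binding protein C, Mybpc2, read 13.49, 13.51, 13.49 and 13.56 in quadriceps and 10.33, 10.47, 11.42 and 10.68 in soleus (-2.79 ± 0.53, adjusted p = 0.000268). In both genes soleus of F4-3 was the highest soleus array and still lay under every quadriceps array. Mylk2, the kinase of the fast regulatory light chain, differed by -1.65 ± 0.15, and the Z-disc myozenins Myoz1 and Myoz3 by -1.63 ± 0.14 and -1.23 ± 0.15. The fast troponins and light chains differed by less than 1 log2 unit: Tnni2 differed by -0.25 ± 0.07, Tnnt3 by -0.26 ± 0.07, Myl1 by -0.31 ± 0.07 and Mylpf by -0.68 ± 0.09. Tnnc2, at -0.13 ± 0.07, did not pass (adjusted p = 0.164). These fast genes read high in both muscles, and when the 4 wt young mice were fitted alone Tnni2 (adjusted p = 0.0906), Tnnt3 (0.0819) and Tpm1 (0.0586) did not pass. Tnni2 was also lost after quantile normalization (0.0702). Tpm1, a tropomyosin gene with many transcript forms, differed by -0.29 ± 0.07, while its other probe sets ran from -1.86 to 0.38, so probe sets of this gene did not share a direction.

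Both genes were tested in 15 paralogue pairs, listed with the slow or oxidative member first. In 13 of these the first gene passed as higher in soleus and the second as higher in quadriceps. Calsequestrin, the calcium store protein, was such a pair: Casq2 differed by 3.11 ± 0.23 and Casq1 by -0.97 ± 0.09. So were the lactate dehydrogenase subunits, with Ldhb at 2.67 ± 0.26 and Ldha at -1.09 ± 0.10, and the monocarboxylate carriers, with Slc16a1, which takes up lactate in oxidative fibres, at 1.23 ± 0.20 and Slc16a3, which exports it, at -2.90 ± 0.22. The troponin C pair was an exception because Tnnc2 did not pass. The alanine aminotransferases ran against the order in which they had been listed: Gpt2, the mitochondrial form, was higher in quadriceps (-2.89 ± 0.23) and Gpt, the cytosolic form, was higher in soleus (1.07 ± 0.12). The 3 other Gpt2 probe sets kept were also higher in quadriceps, from -2.78 to -1.93.

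**Figure D2:**
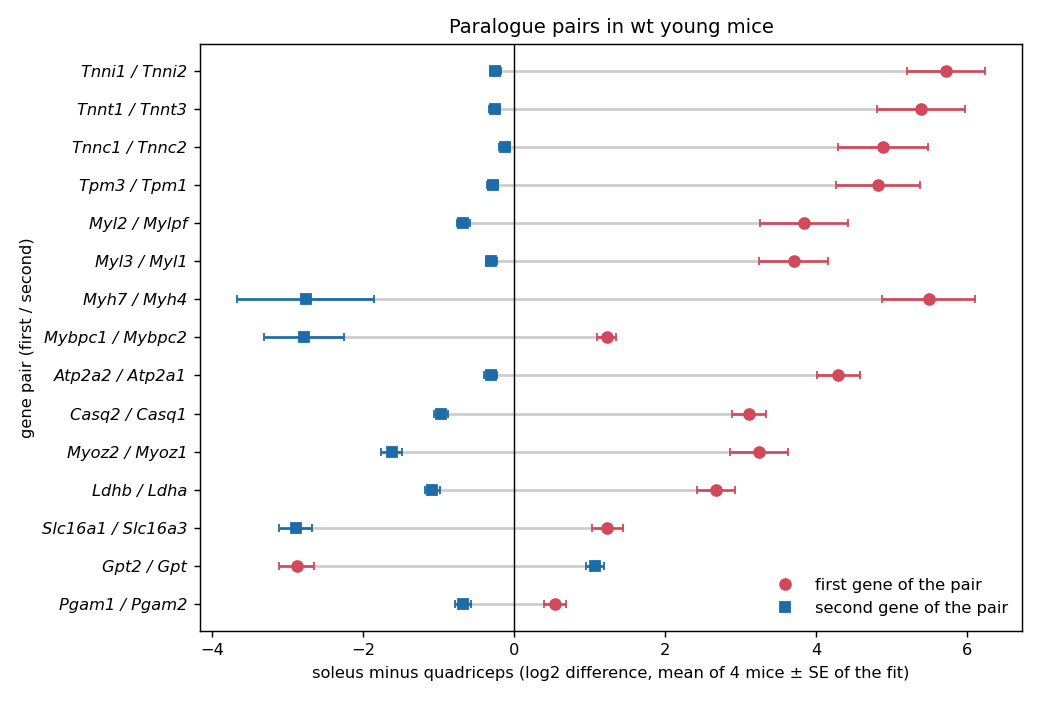
Soleus minus quadriceps (x axis, log2, mean of 4 mice with the standard error of the fit) for the 15 paralogue pairs (y axis), with the first gene of a pair as a circle and the second as a square. In 13 pairs the circle passes right of 0 and the square left of 0; Gpt2 and Gpt lie the other way round, and Tnnc2 did not pass.

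Contractile genes of embryonic and cardiac muscle were mostly higher in soleus, with 6 of 8 tested passing upward and 1 downward (median 1.28), while 4 of the 12 listed did not pass the filter on low values. Embryonic myosin, Myh3, read 7.13, 7.01, 7.43 and 5.88 in soleus and 4.06, 3.47, 3.52 and 3.77 in quadriceps, where all 4 values were at or under the median of their array. The difference was 3.16 ± 0.30 (adjusted p = 4.26e-08). Cardiac troponin T, Tnnt2, differed by 2.23 ± 0.15, cardiac alpha myosin, Myh6, by 1.83 ± 0.21, the atrial and embryonic light chain Myl4 by 1.50 ± 0.18, and the stretch-responsive titin partner Ankrd1 by 1.06 ± 0.28. Cardiac actin, Actc1, went the other way, with 10.94, 11.31, 12.62 and 12.87 in quadriceps and 9.25, 9.48, 9.70 and 9.64 in soleus (-2.42 ± 0.26, adjusted p = 2.49e-07). Its quadriceps values spanned almost 2 log2 units between mice, and all lay over the soleus values.

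Calcium release and uptake genes were tested in lists for slow and fast fibres. Of 5 genes of slow calcium handling, 4 were higher in soleus. Atp2a2, the slow and cardiac calcium pump, read 13.50, 13.70, 13.65 and 13.52 in soleus and 9.70, 8.65, 8.86 and 10.02 in quadriceps (4.29 ± 0.28, adjusted p = 3.04e-10), and its 4 other probe sets ran from 3.54 to 4.89. Its inhibitors were higher too: sarcolipin, Sln, read 10.84, 10.89, 10.41 and 11.01 in soleus and 7.08, 5.72, 5.68 and 5.29 in quadriceps (4.84 ± 0.41), and phospholamban, Pln, differed by 2.84 ± 0.31. Camk2d, at -0.64 ± 0.16 and a calmodulin-dependent kinase, was the member of this list that passed as higher in quadriceps, a call lost without F4-2 (adjusted p = 0.0604) or with probe sets averaged (0.292). Of 13 fast calcium genes, 9 were higher in quadriceps, 1 in soleus and 3 did not pass. Parvalbumin, Pvalb, the calcium buffer of the fastest fibres, read 13.84, 13.98, 13.90 and 13.76 in quadriceps and 10.76, 10.77, 11.49 and 10.58 in soleus (-2.97 ± 0.50, adjusted p = 7.06e-05). The channel subunit Cacng1 (-1.53 ± 0.11) and the junctophilins Jph2 (-1.04 ± 0.13) and Jph1 (-0.92 ± 0.12), which join the surface membrane to the calcium store, were higher in quadriceps. The fast pump Atp2a1 differed by -0.31 ± 0.09, and the release channel Ryr1, at 0.15 ± 0.11, did not pass (adjusted p = 0.335).

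Calcineurin is a calcium-activated phosphatase linked to the slow programme. Of 13 genes of its signalling list 3 passed as higher in soleus, 5 as higher in quadriceps and 5 did not pass. Over all genes tested, 19% passed toward soleus and 18.1% toward quadriceps. Of its subunits, 3 were higher in quadriceps: Ppp3ca differed by -0.66 ± 0.12, Ppp3cb by -0.71 ± 0.10 and Ppp3r1 by -0.80 ± 0.13. The subunit Ppp3cc, at 0.33 ± 0.17, did not pass (adjusted p = 0.134), and it passed as higher in soleus when the 4 wt young mice were fitted alone (0.0436). The inhibitory partners Rcan1 (1.62 ± 0.13) and Rcan2 (1.48 ± 0.11), of which Rcan1 is a known transcriptional target of the pathway, were higher in soleus. The calmodulin kinase Camk2a read 9.49, 9.22, 10.35 and 10.33 in quadriceps and 7.13, 7.47, 7.61 and 7.42 in soleus (-2.44 ± 0.19, adjusted p = 2.66e-09), with other probe sets from -2.46 to 0.21. The related kinase Camk2g was higher in quadriceps too (-0.90 ± 0.11), and Camk2b was higher in soleus (0.44 ± 0.15), a call lost without F4-1 or F4-3 (adjusted p = 0.297 and 0.0555).

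Glycolysis was the list with the lowest median of those with 8 or more members tested (-0.72), and 12 of its 16 tested genes were higher in quadriceps. Pfkfb3, which makes the activator of phosphofructokinase, read 7.73, 8.56, 8.59 and 8.15 in quadriceps and 5.08, 4.27, 5.05 and 4.70 in soleus (-3.49 ± 0.26, adjusted p = 1.82e-09), and its other probe set gave -0.96. Both enzymes of the glycerol phosphate shuttle were higher in quadriceps, with cytosolic Gpd1 at -2.59 ± 0.19 and mitochondrial Gpd2 at -1.85 ± 0.16. The steps of the main path differed by less: Pgk1 by -1.01 ± 0.08, Tpi1 by -0.84 ± 0.08, Pkm by -0.75 ± 0.10, Pfkm by -0.55 ± 0.12 and Aldoa by -0.47 ± 0.08. The 3 members higher in soleus were Ldhb, which favours lactate use, Hk2, the hexokinase that traps glucose in insulin-sensitive tissue (0.47 ± 0.14), and Pgam1 (0.54 ± 0.15). The Hk2 call was lost without F4-3 (adjusted p = 0.0658) and that of Pgam1 without F4-2 (0.0855). Ldhb read 12.63, 12.67, 12.70 and 12.58 in soleus and 9.91, 9.84, 9.87 and 10.27 in quadriceps (2.67 ± 0.26), and its values did not overlap between muscles.

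Of 17 glycogen genes tested, 6 passed as higher in soleus, 7 as higher in quadriceps and 4 did not pass. Higher in quadriceps were the phosphorylase kinase subunits Phkg1 (-2.32 ± 0.15), Phka1 (-1.88 ± 0.14) and Phkb (-1.59 ± 0.10), the muscle phosphorylase Pygm (-0.99 ± 0.12), phosphoglucomutase, Pgm1 (-1.90 ± 0.10), the glycogen-binding Stbd1 (-2.10 ± 0.16) and Ppp1r3a (-0.40 ± 0.13), which brings a phosphatase to glycogen. Higher in soleus were the branching enzyme Gbe1 (1.34 ± 0.17), the synthase Gys1 (0.68 ± 0.15), the brain form of phosphorylase, Pygb (0.64 ± 0.16), glycogenin, Gyg (0.27 ± 0.09), which primes glycogen synthesis, Pgm2 (0.35 ± 0.10) and Ppp1r3d (0.36 ± 0.13). With 1 of the 4 mice left out, calls were lost for Ppp1r3a (F4-2 or F4-3, adjusted p = 0.0636 and 0.127), Pygb (F4-1, 0.0537), Gyg (F4-2, 0.0715), Pgm2 (F4-3, 0.0891) and Ppp1r3d (F4-1, F4-2 or F4-4, 0.0931, 0.197 and 0.07). Ppp1r3d was also lost without the pairing by mouse (0.122), and Gyg when the 4 wt young mice were fitted alone (0.0686). In the phosphate transfer list 4 of 11 were higher in soleus and 6 in quadriceps, with a pair of AMP deaminases in opposite directions: Ampd1, the form of fast fibres, differed by -1.06 ± 0.09, and Ampd3 read 9.26, 9.55, 9.56 and 9.32 in soleus and 6.80, 6.68, 7.07 and 7.29 in quadriceps (2.46 ± 0.13). Creatine kinase, Ckm, was higher in quadriceps (-0.40 ± 0.08), as was Gamt, the last enzyme of creatine synthesis (-1.31 ± 0.17), while the creatine carrier Slc6a8 was higher in soleus (0.78 ± 0.09). The mitochondrial creatine kinase Ckmt2, at 0.24 ± 0.10, did not pass (adjusted p = 0.0643), and it passed in the fit without the pairing by mouse (0.042).

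Fatty acid use was the most uniform metabolic list: 24 of 25 tested genes were higher in soleus and 1 in quadriceps, with a median of 1.06, and in all 24 the muscles did not overlap, against 33.2% of all genes tested in either direction. The last step of mitochondrial beta oxidation, Acaa2, differed by 1.59 ± 0.17, the trifunctional protein subunit Hadha by 1.55 ± 0.18, the thioesterase Acot2 by 1.55 ± 0.14, the cytosolic carrier Fabp3 by 1.36 ± 0.20 and the uptake receptor Cd36 by 1.27 ± 0.15. Lipoprotein lipase, Lpl, which frees fatty acids in capillaries, differed by 1.08 ± 0.13. The smallest differences among the 24 were those of Mlycd (0.59 ± 0.11), which removes malonyl-CoA, and Pdk4 (0.65 ± 0.17), which shuts off pyruvate oxidation. Ucp3, a mitochondrial carrier, was the exception at -0.71 ± 0.21, and it did not pass without F4-2 (adjusted p = 0.114) or without F4-4 (0.0675).

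Genes of the tricarboxylic acid (TCA) cycle and the respiratory chain differed by less. In the TCA list, 14 of 26 were higher in soleus, 1 was higher in quadriceps and 11 did not pass, with a median of 0.28. Idh2, the mitochondrial NADP-dependent isocitrate dehydrogenase, stood apart with 11.80, 11.59, 11.43 and 11.28 in soleus and 8.44, 8.52, 8.42 and 8.59 in quadriceps (3.03 ± 0.22, adjusted p = 1.15e-09), although its other probe set gave 0.86. Next were the pyruvate dehydrogenase kinase Pdk1 (1.23 ± 0.15) and Ogdh (1.07 ± 0.16), and citrate synthase, Cs, differed by 0.41 ± 0.12, a call lost without F4-1 (adjusted p = 0.0656) or F4-2 (0.0879). The phosphatase Pdp1, which turns pyruvate dehydrogenase on, was higher in quadriceps (-1.10 ± 0.14). Of 33 complex I genes, 10 were higher in soleus, none in quadriceps and 23 did not pass (median 0.14), led by Ndufa10 (0.73 ± 0.13) and Ndufv1 (0.68 ± 0.09). Complexes III and IV had 11 of 23 higher in soleus, none in quadriceps and 12 that did not pass (median 0.22), led by Uqcrq (0.56 ± 0.13) and Uqcrc1 (0.51 ± 0.14). ATP synthase had 7 of 19 higher in soleus, and 1, the synthase inhibitor Atpif1 (-0.46 ± 0.18, adjusted p = 0.0478), higher in quadriceps, a call lost without F4-1, F4-2 or F4-3 (adjusted p = 0.102, 0.141 and 0.181).

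Ketone body and amino acid oxidation had 12 of 21 genes higher in soleus and 2 in quadriceps (median 0.41). Bdh1, which oxidises the ketone body hydroxybutyrate, read 11.63, 11.41, 10.89 and 11.07 in soleus and 8.34, 7.92, 7.40 and 8.47 in quadriceps (3.22 ± 0.31, adjusted p = 5.78e-08). Later steps of ketone use were higher by less, with Acat1 at 0.91 ± 0.13 and Oxct1 at 0.51 ± 0.10. Besides Gpt2, glutamine synthetase, Glul, was higher in quadriceps (-0.56 ± 0.11), with an adjusted p of 0.0565 in the fit without the pairing by mouse. Among 17 genes of oxygen supply, 9 were higher in soleus and 2 in quadriceps: myoglobin, Mb, differed by 0.59 ± 0.11, the carbonic anhydrase of slow fibres, Car3, by 0.57 ± 0.08, and the vessel factors Angpt1 and Vegfb by 1.04 ± 0.17 and 0.78 ± 0.15. The 2 higher in quadriceps were neuronal nitric oxide synthase, Nos1 (-0.95 ± 0.17), and the water channel Aqp4 (-0.98 ± 0.23), both found at the fibre membrane. Antioxidant genes had 7 of 20 higher in soleus and 3 in quadriceps, against 19% and 18.1% of all genes tested. Catalase, Cat (1.34 ± 0.14), and the metallothionein Mt1 (1.11 ± 0.21) led toward soleus. The secreted peroxidase Gpx3 (-1.37 ± 0.16) and Gclm (-1.01 ± 0.13), a subunit of glutathione synthesis, led toward quadriceps.

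**Figure D3:**
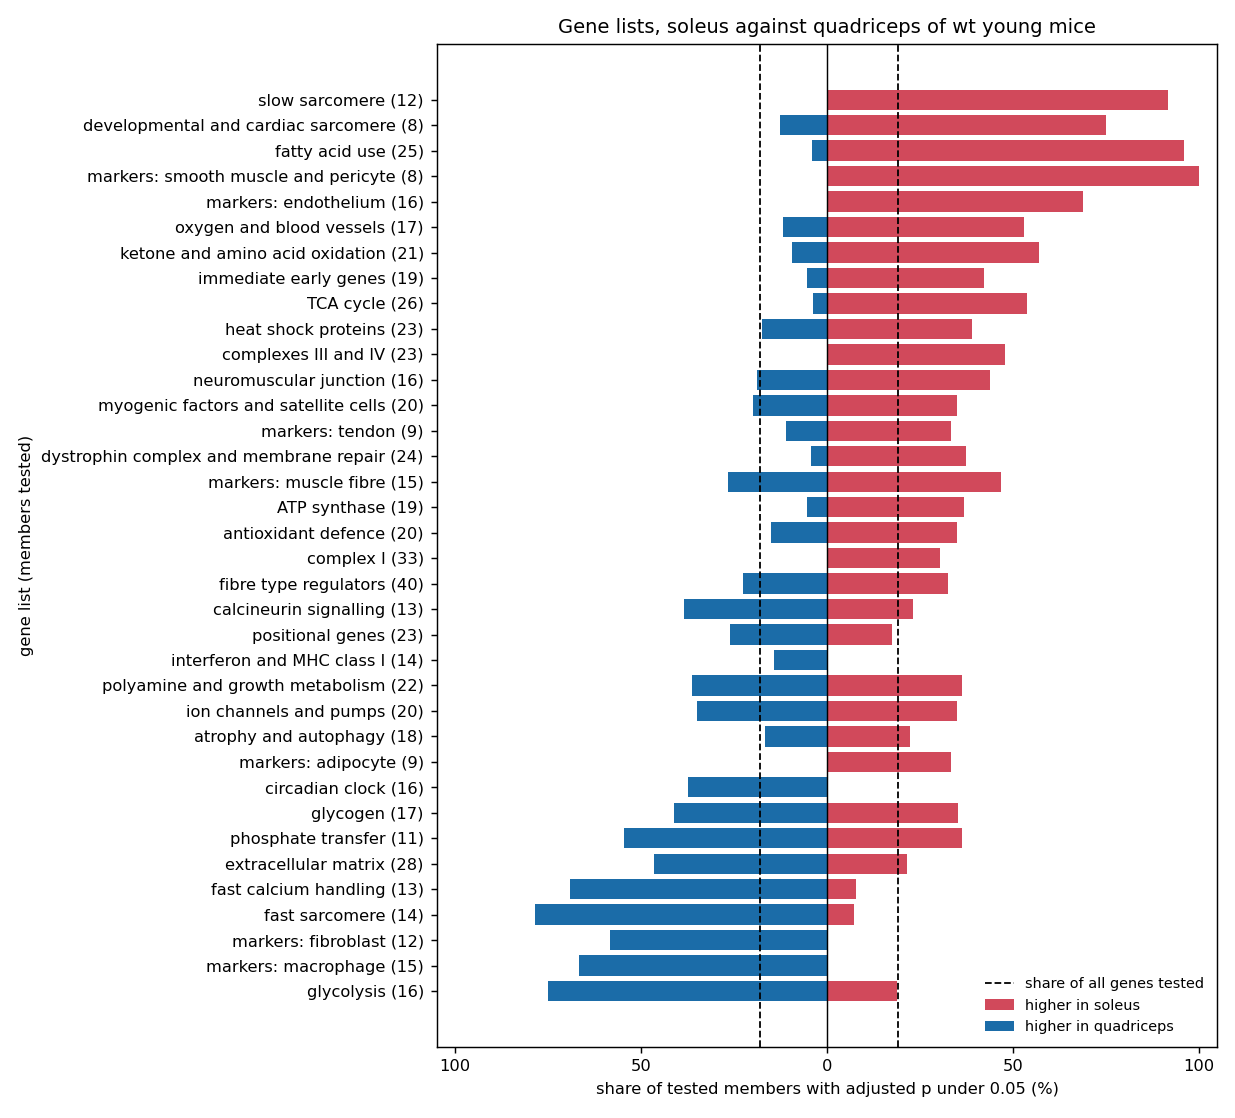
Share of tested members (x axis, %) that passed as higher in soleus (red, to the right) or in quadriceps (blue, to the left) for each gene list with 8 or more members tested (y axis, number tested in brackets), ordered by median difference. Dashed lines mark 19% and 18.1%, the shares of all 11540 genes tested; the slow sarcomere and fatty acid lists lie far to the right of them, and glycolysis, fast sarcomere and macrophage markers far to the left.

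Transcriptional regulators linked to fibre type were split, with 13 of 40 higher in soleus and 9 in quadriceps. Maf, a factor of fast IIb fibres, read 10.30, 10.56, 10.20 and 10.23 in quadriceps and 7.38, 7.79, 7.35 and 7.24 in soleus (-2.88 ± 0.21, adjusted p = 9.46e-10), and its 5 other probe sets were all negative, from -3.88 to -0.81. Sox6, a repressor of slow genes (-1.20 ± 0.11), Rxrg, a retinoid receptor (-1.19 ± 0.12), Tbx15, a factor of glycolytic fibres (-0.76 ± 0.11), and Eya1, which is a transcriptional cofactor of fast genes (-0.56 ± 0.10), were also higher in quadriceps. Esrrg, a nuclear receptor that drives oxidative and slow genes, read 9.43, 9.70, 9.59 and 9.40 in soleus and 6.83, 6.77, 6.82 and 7.14 in quadriceps (2.64 ± 0.21, adjusted p = 4.49e-09). Lmcd1, a cofactor that activates calcineurin signalling, differed by 2.16 ± 0.20, Ppara, the fatty acid receptor, by 1.70 ± 0.25, and the TEAD cofactor Vgll2 by 1.53 ± 0.15. The coactivator Ppargc1b was higher in soleus (0.89 ± 0.13). Its relative Ppargc1a, at 0.54 ± 0.26, did not pass (adjusted p = 0.113) with the spread shared over 18 mice, and passed when the 4 wt young mice were fitted alone (adjusted p = 0.0017).

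Energy sensing and growth genes held several of the largest differences. Smox, which oxidises spermine, read 11.77, 11.60, 11.55 and 11.98 in quadriceps and 6.99, 7.19, 7.22 and 6.76 in soleus (-4.69 ± 0.23, 25.8-fold higher in quadriceps, adjusted p = 7.6e-12), and its other probe set gave -3.94. Odc1, the first enzyme of polyamine synthesis, was also higher in quadriceps (-1.18 ± 0.18). Among subunits of the AMP-activated kinase, the gamma subunit of fast muscle, Prkag3, differed by -3.20 ± 0.28, with quadriceps at 9.43, 9.81, 10.41 and 10.16 and soleus at 6.58, 6.41, 7.51 and 6.50. Prkab2 (-2.33 ± 0.15), Prkag2 (-0.84 ± 0.13) and Prkaa2 (-0.57 ± 0.17) were higher in quadriceps as well, the last of them not without F4-2 (adjusted p = 0.0653) or F4-3 (0.0535). The insulin receptor adaptors Grb14 (1.40 ± 0.19) and Grb10 (1.20 ± 0.13) were higher in soleus. A pair of Rab regulators of glucose uptake split, with Tbc1d4 at 0.70 ± 0.14 and Tbc1d1 at -0.58 ± 0.20, the latter lost without F4-2, F4-3 or F4-4 (adjusted p = 0.0661, 0.0791 and 0.152). The insulin-responsive glucose carrier itself, Slc2a4, differed by 0.06 ± 0.12 and did not pass (adjusted p = 0.743). Over the list, 8 of 22 passed as higher in soleus and 8 as higher in quadriceps.

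Of 20 genes of myogenic control and satellite cells, the stem cells of muscle, 7 were higher in soleus and 4 in quadriceps. Over all genes tested these shares were 19% and 18.1%, and the share of this list toward quadriceps is near the latter. The regulator Myod1 read 6.65, 7.50, 7.57 and 7.98 in quadriceps and 5.17, 6.12, 6.12 and 5.95 in soleus (-1.58 ± 0.22, adjusted p = 9.96e-06). The growth factor Igf1 (-1.29 ± 0.20) and its binding protein Igfbp5 (-1.30 ± 0.17) were higher in quadriceps too. The Notch target Hes1 was higher in soleus (0.80 ± 0.23), and not without F4-1 (adjusted p = 0.0961). Positional genes, which mark place along the limb, differed in both directions: 4 of 23 were higher in soleus, led by the T-box factors Tbx3 (1.35 ± 0.15) and Tbx4 (0.89 ± 0.14), and 6 in quadriceps, led by Hoxc8 (-1.04 ± 0.17) and Shox2 (-1.03 ± 0.18). The share toward soleus is near that of all genes tested, and Shox2 did not pass with mouse H4-2 in the fit (adjusted p = 0.0729).

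At the neuromuscular junction, 7 of 16 genes were higher in soleus and 3 in quadriceps. Over all genes tested these shares were 19% and 18.1%, and the share of this list toward quadriceps is near the latter. The acetylcholine receptor subunit Chrna1 read 8.82, 8.42, 8.85 and 8.75 in soleus and 6.19, 6.47, 6.77 and 7.14 in quadriceps (2.07 ± 0.12). The agrin receptor pair Musk (1.17 ± 0.16) and Lrp4 (0.91 ± 0.17) and the neuregulin receptor Erbb3 (0.96 ± 0.14) were higher in soleus. Acetylcholinesterase, Ache (-1.07 ± 0.22), and the adult receptor subunit Chrne (-0.47 ± 0.16) were higher in quadriceps, and Chrne did not pass without F4-2 or F4-4 (adjusted p = 0.0862 and 0.258). Among 20 ion channel and carrier genes, 7 passed each way. The sodium pump beta subunits diverged, with Atp1b1 at 1.67 ± 0.19 and Atp1b2 at -2.76 ± 0.26. Atp1b4, a gene of the same family, differed by 1.10 ± 0.25. The glucose carrier Slc2a3 (-2.66 ± 0.25), the potassium channel Kcnc4 (-2.00 ± 0.21) and the chloride channel Clcn1 (-0.56 ± 0.12), which steadies the resting membrane, were higher in quadriceps.

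The vessel marker lists had no member that passed as higher in quadriceps, and the macrophage and fibroblast marker lists none that passed as higher in soleus. Of 16 endothelial markers, 11 were higher in soleus and none in quadriceps (median 0.47), led by the growth factor receptor Kdr (0.85 ± 0.22). Their mean level over the list ran from 7.49 to 7.63 in soleus and from 6.84 to 7.28 in quadriceps, and every marker of the list was above the median on at least 1 of the 8 arrays. All 8 smooth muscle and pericyte markers tested were higher in soleus (median 0.58), among them smooth muscle myosin, Myh11 (0.75 ± 0.17), while 2 of the 10 listed did not pass the filter. Soleus of F4-4 was the lowest soleus array of both vessel lists and quadriceps of F4-4 the highest, so their medians in that mouse were 0.18 and 0.07.

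Of 15 macrophage markers tested, 10 were higher in quadriceps and none in soleus (median -0.64), led by the scavenger receptor Cd163 (-0.97 ± 0.19), complement C1qa (-0.90 ± 0.21) and Adgre1 (-0.81 ± 0.14). The mean over the list was 6.51 to 6.69 in soleus and 6.93 to 7.30 in quadriceps, without overlap. Fibroblast markers passed as higher in quadriceps for 7 of 12 and in soleus for none (median -0.60), with Smoc2 at -1.45 ± 0.16, Dpt at -0.78 ± 0.22 and Pdgfra at -0.65 ± 0.17. Dpt did not pass without F4-3 (adjusted p = 0.057). The other 5 did not pass, with Mfap5 at 0.38 ± 0.19 and Pi16 at 0.18 ± 0.16, and Mfap5 passed as higher in soleus when the 4 wt young mice were fitted alone (adjusted p = 0.0284). The list mean was 8.91 to 9.18 in soleus and 9.13 to 9.70 in quadriceps, which overlapped. The part of these cells in any other difference was not tested.

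Of 28 extracellular matrix genes, 13 were higher in quadriceps, 6 were higher in soleus and 9 did not pass. The muscles did not overlap for 8 of the 28, against 33.2% of all genes tested. The list median was -0.52, 0.01, -0.16 and -0.73 in the 4 mice, near 0 in F4-2. Its mean level in F4-2 was higher in soleus (8.51) than in quadriceps (8.28). Of the 13, 3, Dcn, Lum and Col3a1, are also in the fibroblast list. Higher in quadriceps were the inhibitor of matrix proteases Timp2 (-0.96 ± 0.15) and collagen VI chains Col6a3 (-0.76 ± 0.18) and Col6a2 (-0.75 ± 0.15). Higher in soleus were Postn, a matrix protein of growing and loaded tissue, which read 9.86, 10.05, 9.71 and 9.13 in soleus and 7.33, 7.35, 7.18 and 7.02 in quadriceps (2.47 ± 0.17), the collagen Col8a1 of vessel walls (1.34 ± 0.12), Timp1 (1.02 ± 0.22) and elastin, Eln (0.79 ± 0.12). Adipocyte markers had 3 of 9 higher in soleus and none in quadriceps, and their list median ran from -0.54 in F4-3 to 0.67 in F4-1. Tendon markers had 3 of 9 higher in soleus and 1, Kera (-1.62 ± 0.23), in quadriceps.

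Many markers of other tissues read low in both muscles. Of 16 liver markers, 11 stayed at or below the median of each of the 8 arrays, as did 6 of 10 epithelial, 3 of 4 red blood cell, 5 of 10 nerve and 6 of 9 lymphocyte markers. Others were well above the medians of 4.38 to 4.44: the liver markers Cyp2e1 and Hp read 6.38 to 9.11 and 6.19 to 8.02 over the 8 arrays, and the myelin genes Pmp22 and Mbp 8.15 to 9.01 and 6.45 to 8.57. None of 5 liver markers tested passed between the muscles, and of 5 nerve markers tested Pmp22 (0.49 ± 0.13) and Mbp (0.80 ± 0.27) passed as higher in soleus. The Mbp call was lost without F4-1, F4-2 or F4-3 (adjusted p = 0.0826, 0.0937 and 0.132) and with probe sets averaged (0.0836). Ighm, the heavy chain of immunoglobulin M, was the exception among lymphocyte genes, at 9.27, 9.10, 9.13 and 9.90 in quadriceps and 4.14, 4.20, 5.42 and 4.79 in soleus (-4.71 ± 0.31, adjusted p = 2.6e-10). Its 3 other probe sets ranged from -1.69 to 0.30. The 15 muscle fibre markers, which include slow and fast isoforms, averaged 13.02 to 13.35 in soleus and 12.25 to 12.63 in quadriceps. Of them, 7 passed as higher in soleus, 4 passed as higher in quadriceps and 4 did not pass, with a median difference of 0.17. The slow genes Myh7 (5.49) and Tnnt1 (5.39) had the largest differences of this list, so its mean is no measure of the amount of fibre.

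Heat shock and immediate early genes passed more often toward soleus than toward quadriceps. Of 23 heat shock genes, 9 were higher in soleus and 4 in quadriceps. Over all genes tested these shares were 19% and 18.1%, and the heat shock share toward quadriceps is near the latter. Hspb7, a small heat shock protein of heart and skeletal muscle, read 13.16, 13.28, 13.05 and 13.05 in soleus and 10.77, 10.69, 9.96 and 10.73 in quadriceps (2.60 ± 0.25, adjusted p = 6.31e-08). Hspa2 (1.45 ± 0.19), Dnaja4 (1.32 ± 0.13) and the chaperone partner Bag3 (0.89 ± 0.18) were higher in soleus, and Hspb8 (-0.77 ± 0.13) and Hsph1 (-0.68 ± 0.11) in quadriceps. Among 19 immediate early genes, which respond within minutes to activity or handling, 8 were higher in soleus and 1 in quadriceps. The muscles did not overlap for 3 of the 19, against 33.2% of all genes tested. Atf3 differed by 1.86 ± 0.30 and Btg2 by 1.31 ± 0.14, while Fos, at 0.72 ± 0.30, and Egr1, at 0.59 ± 0.24, did not pass (adjusted p = 0.0672 and 0.0566). Fos passed without F4-2 (adjusted p = 0.0115) and Egr1 without F4-4 (0.0032). The list mean of these genes varied between mice, from 7.14 to 7.78 in soleus and from 6.53 to 7.42 in quadriceps, and these ranges overlapped.

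None of 16 clock genes was higher in soleus and 6 were higher in quadriceps, led by Rora (-1.02 ± 0.13) and Hlf (-0.69 ± 0.12). The median of the clock list was 0.18, -0.28, -0.18 and -0.39 in the 4 mice, with F4-1 against the others. The muscles did not overlap for 2 of the 16, against 33.2% of all genes tested. In the atrophy and autophagy list, 4 of 18 were higher in soleus and 3 in quadriceps. These shares are near the 19% and 18.1% of all genes tested. Gabarapl1, a coat protein of autophagosomes, led toward soleus (1.60 ± 0.17). Among those higher in quadriceps, the ubiquitin ligase Trim63 differed by -0.47 ± 0.11. Its partner Fbxo32 differed by 0.43, -0.58, 0.43 and 0.39 in the 4 mice, with F4-2 against the others, and did not pass (adjusted p = 0.443), whereas without F4-2 it did, as higher in soleus (0.0373). Both other Fbxo32 probe sets were negative (-0.83 and -0.64), and 1 of them, which stood for the gene when the 4 wt young mice were fitted alone, passed there as higher in quadriceps (-0.64, adjusted p = 0.0193). Of 24 genes of the dystrophin complex and membrane repair, 9 were higher in soleus, with the filamin Flnc at 1.41 ± 0.17, utrophin, Utrn, at 0.51 ± 0.12 and dystrophin, Dmd, at 0.40 ± 0.12. The Dmd call was lost without F4-1 (adjusted p = 0.134) or with probe sets averaged (0.853). The 1 higher in quadriceps was Ky (-2.00 ± 0.22), a protease-like protein that binds filamin C.

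Capn3, the gene targeted in the C3KO mice, did not pass between the muscles of wt young mice, with soleus at 10.34, 10.14, 10.09 and 10.36 and quadriceps at 10.17, 10.23, 10.16 and 10.21 (0.04 ± 0.11, adjusted p = 0.831). In the C3KO young mice of the comparison it read 4.33 to 4.71 in soleus and 4.32 to 4.38 in quadriceps, more than 5 log2 units under the wt young arrays. Interferon response genes had 2 of 14 higher in quadriceps, Usp18 (-0.85 ± 0.17) and Ifit3 (-0.54 ± 0.15), and none in soleus, and Ifit3 did not pass without F4-2 (adjusted p = 0.0775). The share toward quadriceps is under the 18.1% of all genes tested.

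Across all genes tested, 4285 of 11540 (37.1%) passed, 2195 higher in soleus and 2090 higher in quadriceps. More than 2-fold differences numbered 360 toward soleus and 365 toward quadriceps, and more than 8-fold ones 33 and 20. Of the 4285, 4011 had the same direction in all 4 mice, which held for 47.6% of all genes tested, and 3367 had no overlap between the muscles. In 102 of them 1 muscle stayed at or below the median of each of its 4 arrays. Arrays of the same muscle correlated at 0.983 to 0.991 over genes and arrays of different muscles at 0.936 to 0.955, as a description.

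Named by the size of their difference, the 25 largest each way included genes outside the lists above. Higher in soleus were Cyfip2, a regulator of actin assembly, at 7.69, 7.84, 8.26 and 8.02 against 3.52, 3.41, 3.31 and 3.41 in quadriceps (4.54 ± 0.17), Tecrl, a reductase-like protein known from the heart (4.16 ± 0.25), Lgi1, a secreted synaptic protein (4.07 ± 0.17), and Myom3, an M-band protein of slow and type IIa fibres (4.06 ± 0.29). Cyfip2, Tecrl and Nlrc3, like Myh3, were at or under the array median in every quadriceps muscle, and Neto2, named below, in every soleus muscle, so that these levels lay among the dimmer probe sets. The others were Ift81 (3.97 ± 0.20), a part of cilia transport, Prune2 (3.79 ± 0.18), Lrrc52 (3.77 ± 0.29), an auxiliary protein of potassium channels, the phosphatase Dusp18 (3.66 ± 0.34), Nlrc3 (3.60 ± 0.20), the natriuretic peptide receptor Npr3 (3.40 ± 0.28), Pcp4l1 (3.35 ± 0.24) and Mamdc2 (3.16 ± 0.22).

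Higher in quadriceps, Mybph, which resembles myosin-binding protein C, had the largest difference, at 8.70, 9.54, 9.43 and 9.97 in quadriceps against 4.22, 4.73, 4.45 and 4.82 in soleus (-4.86 ± 0.24, 29-fold, adjusted p = 7.6e-12). The tetraspanin Tspan8 read 9.72, 10.10, 10.07 and 9.62 in quadriceps and 4.54, 4.74, 5.82 and 5.11 in soleus (-4.82 ± 0.37), with other probe sets from -3.13 to -1.19. Gdap1, a protein of mitochondrial fission (-4.33 ± 0.29), Pla2g7, a secreted phospholipase (-3.93 ± 0.21), and the phospholipase C form Plcd4 (-3.55 ± 0.21) followed. Mss51, a mitochondrial protein of skeletal muscle, read 4.21, 5.68, 7.78 and 4.70 in soleus against 9.11, 8.95, 9.36 and 9.04 in quadriceps (-3.52 ± 0.77), so that soleus of F4-3 exceeded that of F4-1 by more than 3 log2 units. The rest were the amino acid carrier Slc38a4 (-3.28 ± 0.18), the mitotic kinase Aurka (-3.26 ± 0.20), the integrin Itga4 (-3.19 ± 0.18), the RNA-binding protein Cpeb1 (-3.17 ± 0.18), Tlcd4 (-3.09 ± 0.28), Rasd2 (-3.02 ± 0.20), Parm1 (-2.96 ± 0.22), Neto2 (-2.95 ± 0.26), the Wnt modulator Dkk3 (-2.95 ± 0.25) and Eya4 (-2.89 ± 0.23), a transcriptional cofactor. In all 50 named genes the muscles did not overlap, a description, since they were named for their size.

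**Figure D4:**
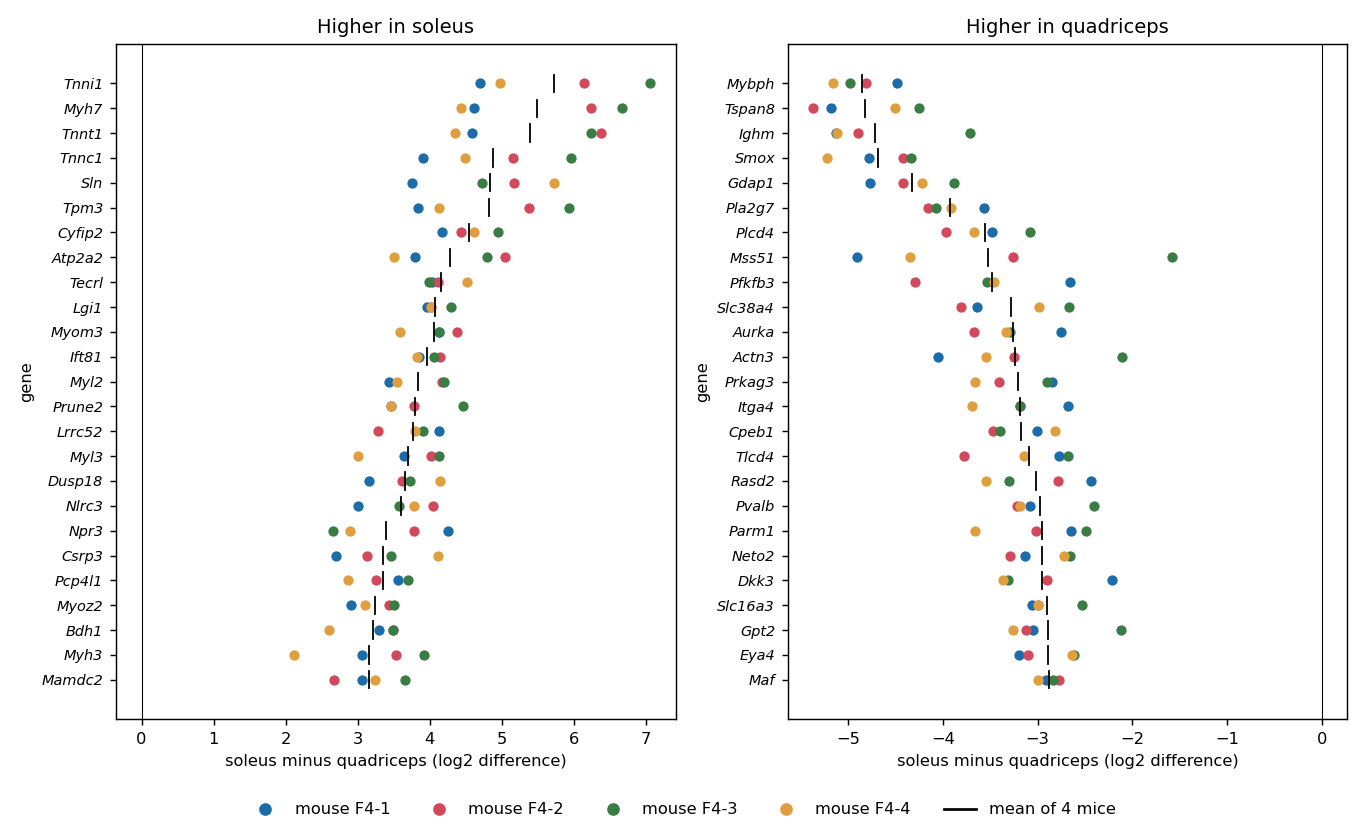
Soleus minus quadriceps (x axis, log2) of the 25 largest differences each way among genes that passed (y axis), 1 point per wt young mouse and a black bar at the mean of 4. The points of Tnni1, Myh7, Tnnt1 and Tpm3 spread over about 2 log2 units, with F4-1 and F4-4 low, and those of Mss51 over more than 3.

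In wt adult mice the same muscles differed in nearly the same way. The wt young and wt adult mice are different animals, and they share 1 fit and its spread. Of the 4285 genes that passed in young mice, 4206 (98.2%) had the same sign in adults, against 82.2% of all genes tested. Of 5156 genes that passed in adults (44.7% of those tested), 3579 also passed in young mice with the same sign, which is 83.5% of the young calls and 69.4% of the adult calls. A further 2 genes passed at both ages with opposite signs. The 725 genes more than 2-fold different in young mice all had the same sign in adults, with median sizes of 1.41 and 1.43. Across genes the differences correlated at 0.936, as a description over 11540 genes that share arrays. The slow contractile list had a median of 3.77 in young and 4.91 in adult mice, a difference between ages that was not tested for the list. Myh7 differed by 5.49 in young and 7.02 in adult mice, and the age difference in it did not pass (adjusted p = 0.758). Actc1 went from -2.42 to -0.47 and Dkk3 from -2.95 to -4.69, and neither age difference passed (adjusted p = 0.0623 and 0.0695).

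The test of the difference between wt young and wt adult mice in soleus minus quadriceps passed for 2 genes (0.0173% of those tested), with 815 at an unadjusted p under 0.05. Postn had differences of 2.53, 2.70, 2.53 and 2.12 in the 4 young mice and from 0.59 to 1.21 in the 5 adult mice, without overlap. The young minus adult value was 1.57 ± 0.23 (adjusted p = 0.0143). Young soleus read 9.86, 10.05, 9.71 and 9.13, and adult soleus 7.12 to 7.84. Psat1, an enzyme of serine synthesis, differed by 1.39, 1.26, 1.20 and 0.80 in young mice and by -0.11 to 0.34 in adults, with a young minus adult value of 1.06 ± 0.17 (adjusted p = 0.0178). Its 4 young quadriceps values, 3.78, 3.98, 3.94 and 3.83, were under the array medians, and young soleus read 5.16, 5.24, 5.14 and 4.63. Fibroblast markers, beside which Postn may be read, had medians of -0.60 in young and -0.41 in adult mice, and their part in it was not tested. No gene passed without the adult mouse M2-2 (adjusted p of 0.0513 for each of the 2), without the young mouse F4-2 (Postn 0.0596, Psat1 0.0641), with all 19 mice (0.064 and 0.0677) or without the pairing by mouse (0.054 and 0.285). Psat1 was also lost without F4-1 (0.0837) or F4-3 (0.0663), on arrays of code 1-3 (0.0818) and with probe sets averaged (0.0842). Leaving out adult mouse X2-3 gave 9 genes, X2-2 4 and W2-3 3. The 95% interval of this comparison reached, in the median gene, 0.34 log2 units to either side.

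**Figure D5:**
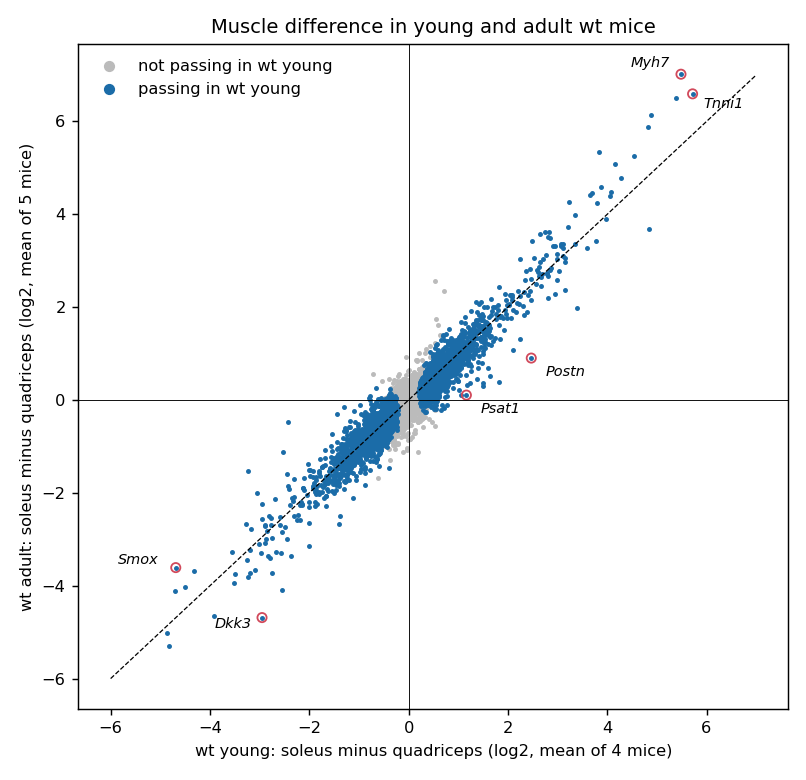
Soleus minus quadriceps (log2) of the 11540 genes tested in wt young mice (x axis, mean of 4) against wt adult mice (y axis, mean of 5), with genes that passed in wt young mice in blue and the dashed line at equal values. Most points follow the line, and Postn and Psat1, which passed the test between ages, lie under it.

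The comparison with the C3KO young mice uses the same wt young arrays as the comparison with adults, so the results share samples. Again 2 genes (0.0173%) passed, with 634 at an unadjusted p under 0.05. Aebp1, a matrix-associated protein of connective tissue, had differences of -0.11, -0.18, -0.57 and -0.75 in the wt young mice and from -2.30 to -1.32 in the 3 C3KO young mice, and wt minus C3KO was 1.38 ± 0.23 (adjusted p = 0.0314). Cdh22, a cadherin, differed by 1.84, 0.91, 1.01 and 1.15 in the wt and from -0.37 to 0.07 in the C3KO young mice (1.37 ± 0.22, adjusted p = 0.0314). Its levels were low: wt young soleus read 5.35 to 6.18 and C3KO young soleus 4.15 to 4.50. Quadriceps read 4.27 to 4.45 in the wt and 4.43 to 4.57 in the C3KO young mice. All but the wt soleus values lay near the medians of the wt young arrays, 4.38 to 4.44. For both genes the differences of the 2 genotypes did not overlap. In the 5 wt adult mice the Aebp1 difference was -1.98 to -1.23, which overlaps the C3KO young range and not that of the wt young mice, and the Cdh22 difference was 0.76 to 1.27. Fibroblast markers had a median of -0.60 in the wt and -0.98 in the C3KO young mice, and their part in the Aebp1 result was not tested. No gene passed without C3KO mouse J4-2 (adjusted p of 0.0957 for each of the 2) or without the wt young mouse F4-1 (Aebp1 0.209, Cdh22 0.11). Aebp1 was lost under 9 alternatives in all, with adjusted p values of 0.0606 to 0.32, among them leaving out F4-2 (0.13) or H4-1 (0.261), and Cdh22 also without J4-1 (0.208). Without F4-3, 5 genes passed, and 1 without J4-1. The soleus minus quadriceps difference of Myh7 was 6.34 in C3KO young mice and that of Pvalb -2.54, and neither genotype difference passed (adjusted p = 0.973 and 0.978). The 95% interval here reached 0.39 log2 units to either side in the median gene.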

How the data were processed

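RNA of soleus and quadriceps was hybridised to 1-colour Affymetrix mouse arrays after Trizol extraction and biotin labelling of cRNA, per the labels' protocols. For all 42 arrays the authors deposited 1 table of log2 values. The submitters' processing notes list MAS5 and RMA, without role or version. How background, scale and probes were handled is otherwise not given in the sources used here. Array medians of the 8 wt young arrays ran from 4.38 to 4.44, and no further normalization was applied. Such tables tend to compress differences at both ends of the scale. For arrays, their number limits the precision.

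Of 45101 probe sets, 64 controls were left out. In the platform annotation 34945 of the others had 1 gene symbol, 932 several and 9160 none. Symbols were updated by gene ID through a RefSeq table of GRCm38.p6 (99.4% matched), giving 18193 genes. A probe set was kept when above the array's median on at least 4 of the 8 wt young arrays, and the kept probe set with the highest mean stood for its gene, which left 11540.

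Within-mouse differences of 18 mice (4 wt young, 5 wt adult, 3 C3KO young, 6 C3KO adult) were fitted with limma 3.58.1 in R 4.3.3 (lmFit, eBayes), with 1 spread shared by the groups, at a Benjamini-Hochberg threshold of 0.05. The 3 main contrasts were wt young, wt young minus wt adult and wt young minus C3KO young. The means of the other groups came from the same fit, and wt adult calls rest on their own adjusted p values. The 2 arrays of mouse M2-1 were not used because title and description name different muscles. Muscles were paired because the titles name the same mouse; the correlation of the deviations of both muscles was 0.327, 0.018, 0.341 and 0.085. Replicates are separate mice by their titles, and no 2 arrays of a muscle held identical values. All wt young arrays carry the description code 1-3, whose meaning the labels do not give. Of the wt adult mice in the fit, M2-2 alone carries another code, as do some arrays of C3KO adult mice. In a C3KO adult mouse the muscles carry different codes. Code was not a term of the main fit.

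Members, gene lists and tests were chosen with earlier results of these data known. Named genes are the 25 largest differences each way among genes that passed, members of the described lists and pairs, Capn3, and genes that passed a test between groups, with other genes marked where named. The fit was tested on simulated data. Alternatives were wt young mice alone, all 19 mice, 1 array code, no pairing, other filters, quantile normalization, averaged probe sets, a trended robust prior, an actin 3' minus 5' covariate and leaving out each mouse. Motifs were searched on both strands in RefSeq promoter windows of 300 bases, 1 per gene.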

Additional observations from a re-analysis of the deposited data

Results flagged for a closer look

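Among 298 values of single genes and list medians, each over 4 mice, 17 had 1 mouse apart from the other 3, beyond the gap that chance exceeds in about 1 of 20 such groups. A count of 17 in 298 is near that share, and which of the 17 exceed chance cannot be told. The values are differences of soleus minus quadriceps (log2), and they are given without an explanation. Mouse F4-3 stood apart in Ighm (-3.71, others from -5.13 to -4.90), Pvalb (-2.41, others from -3.21 to -3.08), Slc16a3 (-2.54, others from -3.06 to -2.997) and Phkb (-1.43, others from -1.66 to -1.63). In these 4 genes the muscles of F4-3 differed by less than those of the other mice.

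Mouse F4-4 stood apart in Gys1 (0.14, others from 0.81 to 0.89), Lmcd1 (1.82, others from 2.25 to 2.29), Myod1 (-2.03, others from -1.49 to -1.38), Hsph1 (-1.02, others from -0.60 to -0.53), Fhl2 (3.19, others from 2.37 to 2.43), Nnt (2.58, others from 3.13 to 3.14) and the median of the fibre type regulators (-0.12, others from 0.13 to 0.18). Mouse F4-1 stood apart in Oxct1 (0.66, others from 0.44 to 0.47), Car3 (0.45, others from 0.61 to 0.62), Grb10 (1.56, others from 1.04 to 1.12), Dmd (0.79, others from 0.24 to 0.29) and the median of the ketone and amino acid list (0.60, others from 0.32 to 0.36). In Fbxo32, F4-2 was at -0.58 and the others from 0.39 to 0.43.

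The difference between muscles differed between groups for 4 genes by limma's test of the difference itself. For Postn the wt young value exceeded the wt adult value by 1.57, and for Psat1 by 1.06. Against C3KO young mice, the wt young value was higher by 1.38 for Aebp1 and by 1.37 for Cdh22.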

How the results depend on the processing

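The count of genes that passed between the muscles of wt young mice was between 3972 and 4489 under the 10 alternatives with all 4 mice, and between 3299 (without F4-3) and 3907 (without F4-4) with 1 mouse left out. It did not move by 1.5 times under any of them. In the fit without the replicate block, which drops the pairing by mouse, 4091 passed, 3951 of them shared with the 4285. Of 259 named results, 217 kept direction and call under all alternatives run, and of 43 list medians 32 kept their sign.

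The comparisons with the other groups did not hold as well, and the cause was not tested. Against wt adults, 2 genes passed, with 0 when all 19 mice entered, 1 on arrays of code 1-3, 0 without the replicate block, 1 above the 60th percentile, 4 after quantile normalization and 1 with probe sets averaged. Against C3KO young mice, 2 passed, with 1 when all 19 mice entered, 4 on arrays of code 1-3, and 1 each without the replicate block, after quantile normalization, with a trended robust prior and with the actin covariate. With 1 mouse left out (those of the other groups as an alternative added after seeing the data), counts ran from 0 to 9 against adults and from 0 to 5 against C3KO young mice. C3KO mouse H4-1 left out gave 2, and without it Aebp1 had an adjusted p of 0.261.

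Signs turned for 5 named genes that did not pass with the 18 mice: Capn3 (-0.0062 to 0.083 with 1 mouse left out), Slc2a4 (-0.036 to 0.12 likewise), Cidec (-0.74 to 0.14), Cyp2e1 (-0.71 to 0.022) and Fbxo32, which was -0.64 in the fit of wt young mice alone, where it passed (adjusted p = 0.0193), and on arrays of code 1-3 (0.161), where another probe set stood for it, and -0.43 with probe sets averaged. Depth here is signal over background: 4 arrays a muscle limit the precision, 102 genes that passed rest on 1 muscle at or under the array median, and values near the top of the arrays may be compressed.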

Other observations

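Some large differences lay outside the gene lists and the 25 largest each way, and the genes named here were chosen after their values were seen. Among sarcomere and Z-disc genes, the stretch-responsive Ankrd2 read 12.64, 12.71, 12.09 and 12.27 in soleus and 9.96, 10.14, 8.96 and 9.68 in quadriceps (2.74 ± 0.34), Pdlim1 differed by 3.11 ± 0.17, Lmod2, which lengthens thin filaments, by 2.78 ± 0.25 and Fhl2 by 2.59 ± 0.20. Among genes linked to lipid storage, the lipid droplet proteins Cidea (2.65 ± 0.31) and Plin5 (1.96 ± 0.22) and the triglyceride enzyme Dgat2 (2.39 ± 0.22) were higher in soleus, whereas the droplet protein Cidec, at -0.38 ± 0.40, did not pass. Nnt, which makes NADPH in mitochondria, read 10.23, 10.23, 10.35 and 10.04 in soleus and 7.09, 7.10, 7.21 and 7.46 in quadriceps (3.00 ± 0.19). The paired factors Sim1 (2.80 ± 0.22) and Sim2 (1.98 ± 0.23) were both higher in soleus. In wt adults the differences were 3.61 for Ankrd2, 3.03 for Nnt and 2.67 for Sim1.

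Higher in quadriceps were Mrln, the micropeptide myoregulin that inhibits the fast calcium pump, at 10.63, 10.44, 10.72 and 10.25 in quadriceps and 8.02, 7.41, 8.52 and 8.52 in soleus (-2.39 ± 0.19), the kinase Mylk4 (-2.83 ± 0.32), the secreted Fgfbp1 (-2.76 ± 0.29), the nicotinamide riboside kinase Nmrk2 (-2.53 ± 0.27) and the signalling factor Wnt4 (-2.23 ± 0.16). Every gene named in these paragraphs other than Cidec passed at an adjusted p under 0.05 by limma.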
